A study of Solanum lycopersicum with 95 samples.

Results

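Young tomato fruits were followed over 4 days of growth, from 10 to 14 days after anthesis, on plants whose leaves, stem and apex received additional far-red light (FR). The comparison rests on 8 of the 95 RNA libraries of the series, namely the 4 fruit libraries labelled FR at 96 h and the 4 labelled FR at 0 h, which were chosen by their labels and not by any measured value. Plants of the commercial hybrid Foundation were grown under red and white light of 258 µmol m-2 s-1, and from 63 days after sowing the vegetative organs of the Leaf FR plants received 77 µmol m-2 s-1 of FR in addition. A light-impermeable curtain kept this FR away from the fruits, and the No FR plants were handled in the same way with 0 µmol m-2 s-1 of added FR. The first fruit of the second truss was taken while immature and green, 4 h into the photoperiod at both 0 and 96 h, with every fruit of a group from another plant and another experimental unit, and no plant was harvested a second time. The Leaf FR fruits of 0 h were taken before any FR was given. The contrast of 96 h against 0 h therefore holds fruit age, 4 days of FR on the leaves and the day of harvest together, and within the Leaf FR libraries these cannot be told apart. The libraries measure whole fruits, in which fewer cells of a type and less RNA per cell cannot be told apart either.

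In the second week after anthesis a tomato fruit passes from a phase dominated by cell division into one dominated by cell expansion, and it becomes a strong sink for sucrose arriving through the phloem. Sucrose synthase and invertase cleave the incoming sucrose, and part of the carbon is held for a time as starch, whose synthesis begins with ADP-glucose pyrophosphorylase (AGPase) and goes on through soluble and granule-bound starch synthases. Auxin, gibberellins and cytokinins accompany this period: Aux/IAA proteins hold back auxin responses, gibberellin 20-oxidases make the precursors of active gibberellins and gibberellin 2-oxidases remove them, and cytokinin oxidases break cytokinins down.

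The 8 libraries held 15974604 to 17651960 counts each and 21372 to 21989 of the 34075 genes with at least 1 count, and all 95 libraries held 14769415 to 17957406 counts. The identity of the organ was checked against leaves of the same series. For this, 49 genes were chosen on the No FR libraries of 0 h as high in leaves and near zero in fruits. In the Leaf FR libraries, which the choice did not use, their summed level was 8.76 to 16.4 CPM, counts scaled to the size of the library, in fruits of 0 h and 16.5 to 27.2 CPM in those of 96 h, against 11500 to 27100 CPM in leaves at 0 h. The level was thus low in all 8 fruits but higher at 96 h, and its part in the results was not tested. Replicate 3 of 0 h and replicate 2 of 96 h stood apart from the other 3 libraries of their groups on the first growth score described at the end, though neither passed Dixon's criterion for an outlying library, and on the converse score replicate 2 of 96 h lay within its group. The counts that depend on them are given with and without them, a choice made after seeing the data.

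Between 10 and 14 days after anthesis, 2726 of 18277 genes tested in Leaf FR fruits differed at an adjusted p under 0.05 (14.9%), in edgeR's quasi-likelihood test with Benjamini-Hochberg adjustment. Of these, 1261 rose (6.9%) and 1465 fell (8.02%). The changes were mostly moderate, with a median Log2FC of 0.55 among the genes that rose and of -0.68 among those that fell. A Log2FC beyond 1 in either direction was found for 745 of the genes that passed (4.08% of those tested), of which 307 rose and 438 fell, and a Log2FC beyond 2 was found for 99 that rose and 111 that fell. The 4 libraries of 96 h lay entirely above or below the 4 libraries of 0 h in 3677 genes (20.1% of those tested), 1720 of them higher and 1957 lower at 96 h.

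The number of differing genes depended on single libraries. Without replicate 3 of 0 h it was 4811 (2491 higher and 2320 lower), and the rises then outnumbered the falls. Leaving out replicate 1, 2 or 4 of 0 h gave 684, 1033 and 654 genes, and leaving out replicate 1, 2, 3 or 4 of 96 h gave 1534, 1783, 1630 and 869 genes. Without both of the libraries that stood apart, 4710 genes passed, with 2416 higher and 2294 lower. A core of 565 genes passed in the full fit and in each of the 8 fits that left out 1 library, which is 20.7% of the 2726, and 390 of the 565 were lower and 175 higher at 96 h.

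**Figure D1:**
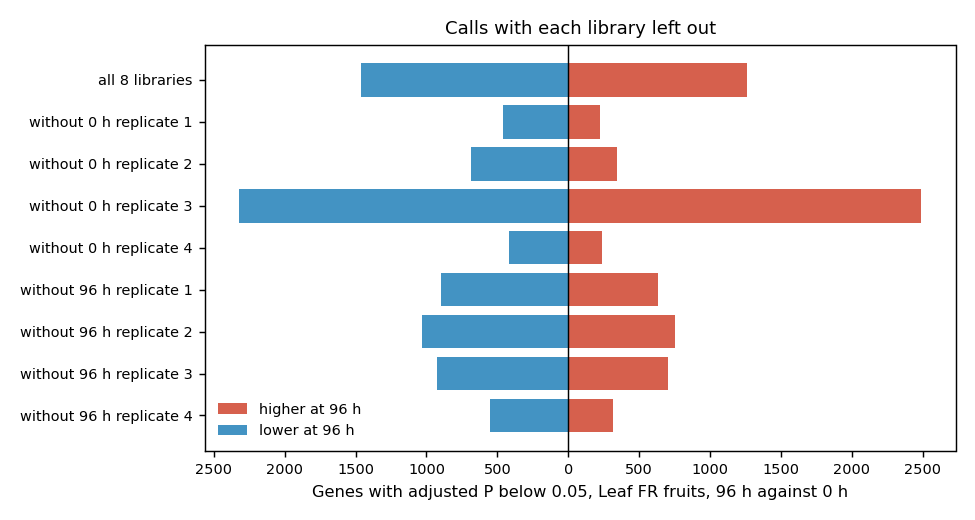
Number of genes with an adjusted p under 0.05 between 96 h and 0 h in Leaf FR fruits (x axis, genes higher at 96 h to the right and lower to the left) with all 8 libraries and with each library left out in turn (y axis). The bars run from 235 higher and 419 lower genes without replicate 4 of 0 h to 2491 higher and 2320 lower without replicate 3 of 0 h.

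Genes were named only where the tables of the study pair their ID with a name, which holds for 48 genes, 27 of carbohydrate metabolism and respiration and 21 linked to hormones. All 48 were measured and passed the filter on low counts. The study chose them because Leaf FR and No FR fruits differed, partly on the same libraries of 96 h, so that their direction here is not independent evidence. Of the 48 genes, 16 rose between 0 and 96 h (background 6.9%), and 0 fell in edgeR's test, where 2 had a lower level at an unadjusted p under 0.05 and DESeq2 gave 1. The 4 libraries of 96 h lay above all 4 libraries of 0 h in 18 of the 48 genes and below them in SlARF2 only. Over all 18277 genes tested, 1720 lay above and 1957 below in this way. All 16 genes that rose kept their direction in each of the 8 fits with 1 library left out, while between 3 and 15 of them passed the threshold.

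Among genes without a name, the widest changes were far larger than those of the named ones. The 4 genes below were picked from those that passed, with separate groups and a mean of at least 20 CPM in the higher group. Within that selection they had the largest rises and falls. Solyc04g078325 had the largest Log2FC of all genes that rose, with 0.0595, 0.195, 0.531 and 0 CPM at 0 h and 2.65, 61.5, 19.8 and 28.9 CPM at 96 h (Log2FC 7.10 ± 1.12 SE, adjusted p = 0.00857 in edgeR's test). This gene was almost silent in every fruit of 0 h, with at most 9 counts in a library, so that the size of its fold change is uncertain. Solyc07g065567 rose as well, from 0.0595, 0.455, 8.14 and 0.063 CPM to 24, 39, 17.7 and 32.8 CPM (Log2FC 3.67 ± 0.84, adjusted p = 0.0228 in edgeR's test). Solyc08g014610 fell from 518, 702, 76.3 and 474 CPM at 0 h to 4.55, 1.58, 6.63 and 2.08 CPM at 96 h (Log2FC -6.89 ± 0.73, adjusted p = 0.00484 in edgeR's test). It had passed through 102 to 197 CPM at 24 h and 10.4 to 50.2 CPM at 48 h. Solyc06g062370 fell from 30.3, 34.7, 0.59 and 20.1 CPM to 0 or 1 count in each library of 96 h (adjusted p = 0.00902 in edgeR's test). In each of these 4 genes replicate 3 was the library of 0 h whose level lay nearest to those of 96 h. Over the same days Solyc04g078325 also rose in No FR fruits (Log2FC 8.62 ± 0.94, adjusted p = 0.000968, edgeR). Solyc08g014610 and Solyc06g062370 fell there too (Log2FC -3.14 and -4.87, adjusted p = 0.0129 and 0.0423, edgeR). Solyc07g065567 did not pass there (Log2FC 2.63 ± 0.75, adjusted p = 0.0584, edgeR).

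Genes of sucrose cleavage rose in the Leaf FR fruits. Together with the hexokinase SlHKK1 they form a group of 4, of which 3 rose (background 6.9%), 0 fell and 1 did not pass in edgeR. Unadjusted and DESeq2 counts of falls were 0 as well. The median Log2FC of the group was 0.55, against -0.002 over all genes tested. LIN9 (Solyc08g079080), a vacuolar invertase that splits sucrose into glucose and fructose, measured 5.11, 6.57, 7.14 and 3.53 CPM in the 4 libraries of 0 h and 11.6, 9.2, 12.4 and 11.7 CPM in those of 96 h. Every fruit of 96 h thus had more LIN9 transcript than every fruit of 0 h, at a low level on both days (Log2FC 1.01 ± 0.20 SE, adjusted p = 0.0152, edgeR). SUS3 (Solyc07g042550), a sucrose synthase, which makes UDP-glucose and fructose from sucrose, measured 91.8, 111, 149 and 83 CPM at 0 h and 171, 172, 162 and 197 CPM at 96 h. Its groups did not overlap, but replicate 3 of 0 h came within reach of the lowest library of 96 h (Log2FC 0.70 ± 0.16, adjusted p = 0.0235, edgeR). SUS1 (Solyc12g009300), a second sucrose synthase, measured 2960, 3230, 3680 and 2710 CPM at 0 h and 4520, 3750, 3790 and 4570 CPM at 96 h. The gap between its groups was narrow, and the gene passed the threshold by little (Log2FC 0.41 ± 0.12, adjusted p = 0.0493, edgeR). SlHKK1, the hexokinase that phosphorylates the released hexoses, averaged 145 ± 15 CPM at 0 h and 154 ± 10.8 CPM at 96 h (SD, n = 4), and its groups overlapped (adjusted p = 0.513, edgeR). The authors' counter divides reads that match several genes, so that the split between the closely related SUS1 and SUS3 is uncertain.

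All 4 starch genes rose (background 6.9%), with a median Log2FC of 0.48. AGPase L1 (Solyc01g109790), which encodes a large subunit of the enzyme that makes ADP-glucose, measured 202, 216, 293 and 168 CPM at 0 h and 424, 322, 385 and 394 CPM at 96 h. All fruits of 96 h lay above all fruits of 0 h (Log2FC 0.80 ± 0.16, adjusted p = 0.0149, edgeR). AGPase S1 (Solyc07g056140), encoding a small subunit of the same enzyme, measured 458, 524, 695 and 427 CPM at 0 h and 785, 774, 793 and 857 CPM at 96 h. Here too the groups were separate, with replicate 3 the highest library of 0 h (Log2FC 0.61 ± 0.14, adjusted p = 0.0227, edgeR). The starch synthase SlSS1 (Solyc03g083090) rose from 81.4 ± 11 to 103 ± 5.18 CPM (SD, n = 4, Log2FC 0.35 ± 0.09 SE, adjusted p = 0.0364, edgeR). SlGBSS1 (Solyc08g083320), the granule-bound starch synthase that makes amylose, measured 356, 361, 405 and 358 CPM at 0 h and 455, 429, 457 and 415 CPM at 96 h. Its 3 low libraries of 0 h lay within 5 CPM of each other, while replicate 3 came close to the fruits of 96 h (Log2FC 0.25 ± 0.07, adjusted p = 0.042, edgeR).

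Of the 11 genes of glycolysis, 2 rose (background 6.9%), 0 fell and 9 did not pass (edgeR, with 0 falls without adjustment and in DESeq2). All 11 had a positive Log2FC, of 0.15 to 0.66, with a median of 0.25. ER28 (Solyc09g009020), an enolase, which makes phosphoenolpyruvate late in the pathway, measured 1120, 1470, 1670 and 1080 CPM at 0 h and 2080, 1930, 1900 and 2050 CPM at 96 h. The 4 libraries of 96 h were close to each other, whereas those of 0 h were spread (Log2FC 0.58 ± 0.14, adjusted p = 0.0268, edgeR). The other gene that rose was PFP subunit α (Solyc04g082880), part of the pyrophosphate-dependent enzyme that phosphorylates fructose 6-phosphate, with 115 ± 27.5 CPM at 0 h and 166 ± 10.4 CPM at 96 h (SD, n = 4, adjusted p = 0.0355, edgeR). PFP subunit β did not pass, with 301 ± 31.3 and 355 ± 12.5 CPM (adjusted p = 0.075, edgeR), although its libraries of 96 h all lay above those of 0 h. SlPFK3, the ATP-dependent phosphofructokinase at the same step, measured 9.04, 9.36, 18.4 and 6.17 CPM at 0 h and 15.6, 18.8, 15.5 and 17.8 CPM at 96 h. Its groups overlapped because of replicate 3 of 0 h (Log2FC 0.66 ± 0.27, adjusted p = 0.124, edgeR). The aldolase SlFBA2 missed the threshold narrowly (Log2FC 0.39 ± 0.12, adjusted p = 0.0521, edgeR). The phosphoglycerate kinase SlPGK and the triose phosphate isomerase SlTPI had Log2FC values of 0.25 and 0.21 (adjusted p = 0.135 and 0.223, edgeR). The 4 genes of glyceraldehyde-3-phosphate dehydrogenase had Log2FC values of 0.15 to 0.27 and adjusted p-values of 0.0937 to 0.237 in edgeR's test. Whether reads were divided among these 4 genes was not tested.

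In the citric acid cycle and respiration, 1 of 8 genes rose (background 6.9%), 0 fell and 7 did not pass in edgeR. DESeq2 and the unadjusted test gave 0 falls too. SlMDH (Solyc03g115990), a malate dehydrogenase, which interconverts malate and oxaloacetate, measured 76.5, 100, 92.8 and 71.4 CPM at 0 h and 133, 112, 121 and 120 CPM at 96 h. The groups were separate (Log2FC 0.51 ± 0.11, adjusted p = 0.0179, edgeR). The other members had small Log2FC values, from 0.01 for the fumarase SlFUM1 to 0.20 for SCOB, a subunit of succinate-CoA ligase that regenerates succinate. In the 2 cytochrome c oxidase subunits SlCOX6A and SlCOX6B, parts of the last complex of the electron transport chain, the Log2FC was 0.13 ± 0.08 and 0.10 ± 0.08 (SE). The libraries of both days overlapped in each, with 209 ± 18.9 CPM at 0 h and 228 ± 7.97 CPM at 96 h for SlCOX6A (SD, n = 4). The subunits 2-OGDH, SUCDH and SCOA1 of 3 cycle enzymes had values of 0.17, 0.17 and 0.15 (adjusted p = 0.0977, 0.211 and 0.21, edgeR).

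Over the whole table of 27 carbohydrate and respiration genes, 10 rose (background 6.9%) and 0 fell. All 27 had a positive Log2FC, with a median of 0.25. The level at 0 h was uneven across these genes together. Replicate 3 was the highest of the 4 libraries of 0 h in 18 of the 27 genes and replicate 2 in the other 9, whereas replicate 4 was the lowest in 17 and replicate 1 in 10. At 96 h replicate 2 was the lowest library in 18 of the 27. The count of 10 was 17 without replicate 3 of 0 h and 16 without both libraries that stood apart, but it was 0 without replicate 1 of 0 h, 2 without replicate 4 of 0 h, and 3 without replicate 2 of 0 h or replicate 4 of 96 h. It was 5 and 6 without replicate 1 or 3 of 96 h. AGPase L1 and LIN9 passed in 7 of the 8 fits with 1 library left out, SlMDH in 6, SUS3 and AGPase S1 in 4, ER28 in 3, and SUS1, SlSS1, SlGBSS1 and PFP subunit α in 1.

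**Figure D2:**
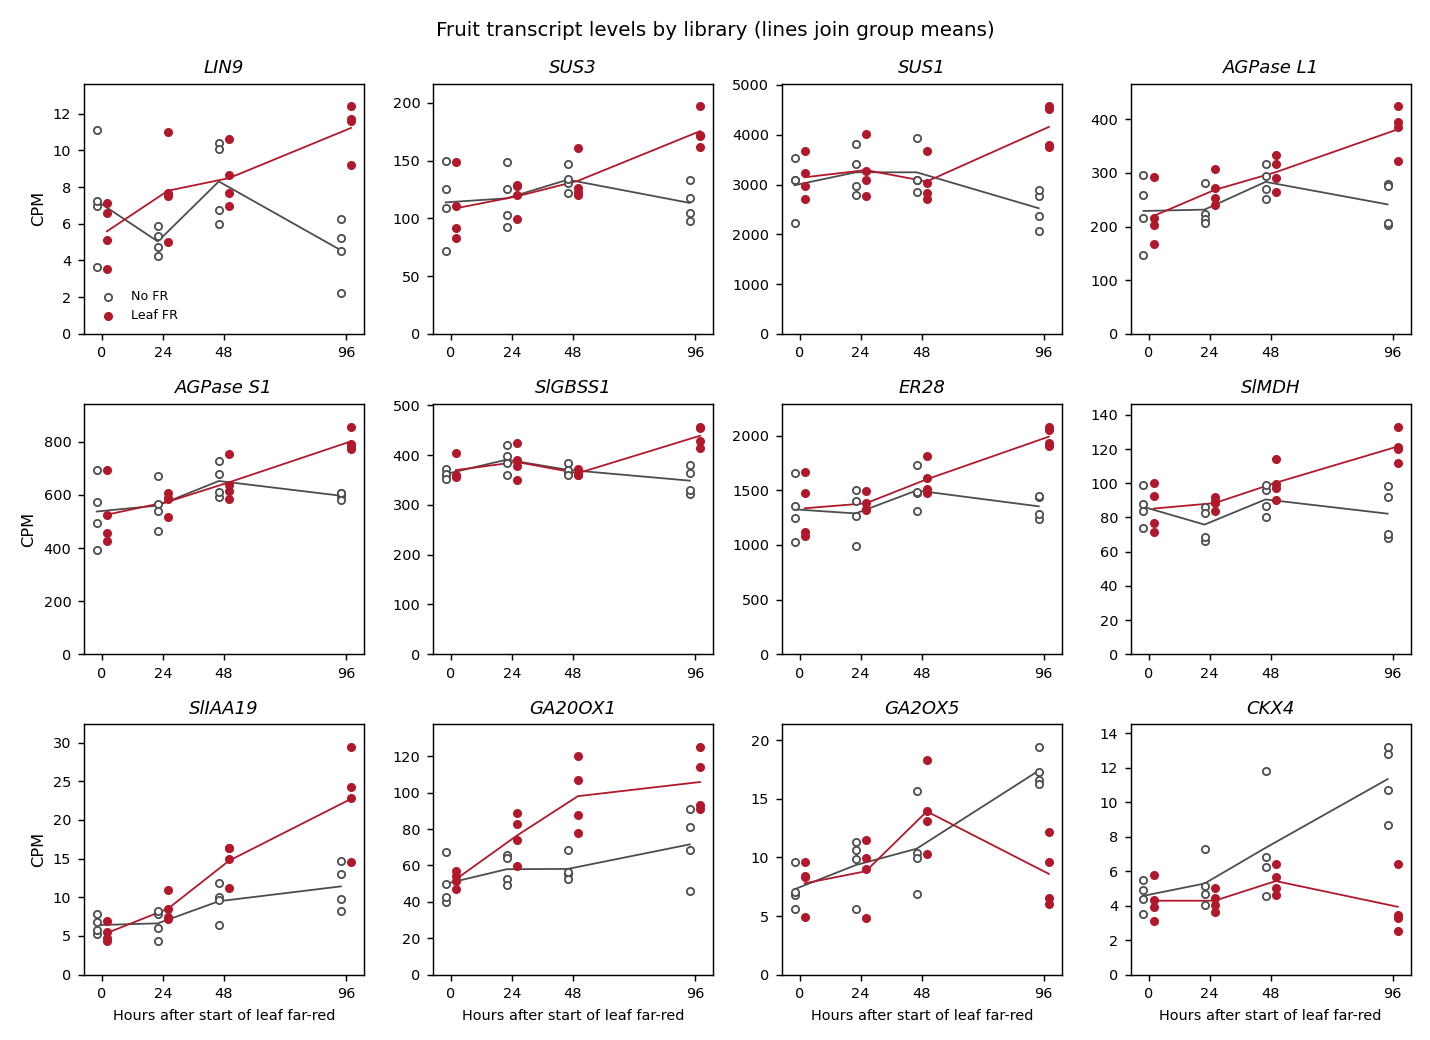
Transcript levels (CPM, linear axes from 0) of 12 named genes in single fruit libraries by hours of FR on the leaves (x axis, 0, 24, 48 and 96 h), with filled points for Leaf FR, open points for No FR and lines through the group means (n = 4). The 12 genes are a selection. SlIAA19 in Leaf FR fruits goes from 4.35 to 6.96 CPM at 0 h to 14.5 to 29.4 CPM at 96 h, and the 8 carbohydrate genes shown are higher in all 4 Leaf FR libraries of 96 h than in all 4 of 0 h. This held for 13 of the 27 genes of the carbohydrate table, while 14 overlapped, and for 1720 of all 18277 genes tested.

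The auxin gene SlIAA19 showed one of the widest changes among the named genes. Of 11 auxin genes, 3 rose (background 6.9%), 0 fell and 8 did not pass in edgeR, with a median Log2FC of 0.21. Lower levels were found for 2 without adjustment and for 1 in DESeq2. SlIAA19 (Solyc03g120380), of the Aux/IAA family of auxin response repressors, measured 5.47, 4.75, 6.96 and 4.35 CPM at 0 h and 24.2, 14.5, 22.8 and 29.4 CPM at 96 h. The lowest fruit of 96 h, replicate 2, had more than the highest of 0 h, and the fitted rise was 4.23-fold (Log2FC 2.08 ± 0.22, adjusted p = 0.00484, edgeR). It passed in all 8 fits with 1 library left out. SlAMI1 (Solyc10g086170), an amidase of the indole-3-acetamide route to auxin, rose from 21.8 ± 3.26 to 28.5 ± 1.45 CPM (SD, n = 4, Log2FC 0.39 ± 0.10 SE, adjusted p = 0.0343, edgeR). PAD-1 (Solyc03g120450), an aminotransferase, measured 55, 70.7, 80.4 and 66.1 CPM at 0 h and 87.8, 88.9, 88.2 and 90.4 CPM at 96 h. The fruits of 96 h differed by less than 3 CPM among themselves, and all lay above those of 0 h (Log2FC 0.39 ± 0.10, adjusted p = 0.0315, edgeR). SlAMI1 and PAD-1 passed in 1 of the 8 fits with 1 library left out.

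The other 8 auxin genes did not pass the threshold. SlPIN5 (Solyc01g068410), of the PIN family of auxin transporters, measured 63.6, 35.2, 33.8 and 40 CPM at 0 h and 21.8, 41.9, 17.4 and 19.7 CPM at 96 h. Replicate 2 of 96 h was as high as the fruits of 0 h, and the difference did not pass (Log2FC -0.77 ± 0.29, adjusted p = 0.1, edgeR). Without that library it passed, with a Log2FC of -1.13 (adjusted p = 0.025, edgeR), and it passed in DESeq2 with all 8 libraries (adjusted p = 0.0391). ToFZY (Solyc06g065630), a YUCCA-like flavin monooxygenase of auxin synthesis, measured 3.93, 3.64, 2.3 and 1.7 CPM at 0 h and 15.2, 1.47, 4.06 and 1.49 CPM at 96 h. Its positive Log2FC of 0.95 ± 0.69 (adjusted p = 0.366, edgeR) came from replicate 1 of 96 h, without which it was -0.30. SlARF10A, an auxin response factor, averaged 57 ± 8.87 CPM at 0 h and 65.6 ± 4.67 CPM at 96 h (SD, n = 4, adjusted p = 0.211, edgeR). SlAR3, named after the Arabidopsis gene IAR3, whose enzyme releases auxin from an amino acid conjugate, averaged 288 ± 48.4 and 231 ± 47.7 CPM (SD, n = 4, adjusted p = 0.209, edgeR). SlARF2, spelled out as Auxin response factor 11 in the tables, measured 56.3, 50, 51.1 and 57.4 CPM at 0 h and 47.5, 49.3, 48 and 42.8 CPM at 96 h. All libraries of 96 h were lower, by little (Log2FC -0.19 ± 0.07, adjusted p = 0.0948, edgeR). SlPIN4, SlCYP19 and SlSLOMO had Log2FC values of 0.13, 0.22 and -0.16 with adjusted p-values of 0.249, 0.156 and 0.282 (edgeR).

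Of the 5 genes of gibberellin and cytokinin metabolism, 1 rose (background 6.9%), 0 fell and 4 did not pass in edgeR. There were 0 falls without adjustment and in DESeq2. The gene that rose, Solyc03g006880, is listed by the study both as GA20OX1, a gibberellin 20-oxidase, and as GA2OX1, and is called GA20OX1 here. It measured 51.2, 47.3, 56.9 and 54.2 CPM at 0 h and 125, 93.4, 91.1 and 114 CPM at 96 h. The groups were far apart compared with their spread, with a 2.03-fold rise that passed in all 8 fits with 1 library left out (Log2FC 1.02 ± 0.11, adjusted p = 0.00494, edgeR). GA2OX5 (Solyc07g061730), a gibberellin 2-oxidase, measured 8.39, 4.88, 8.32 and 9.57 CPM at 0 h and 6.51, 12.2, 9.62 and 6.04 CPM at 96 h. Its groups overlapped, and its Log2FC of 0.15 ± 0.26 turned to -0.07 without replicate 2 of 96 h (adjusted p = 0.723, edgeR). The cytokinin oxidase gene CKX4 (Solyc04g080820) measured 5.77, 4.36, 3.95 and 3.09 CPM at 0 h and 2.54, 6.43, 3.47 and 3.31 CPM at 96 h. The other cytokinin oxidase gene, CKX (Solyc08g061920), measured 13.1, 6.63, 5.66 and 11.7 CPM at 0 h and 4.84, 11, 5.08 and 3.96 CPM at 96 h. In both of them replicate 2 was the highest library of 96 h, the groups overlapped and the adjusted p-values were 0.813 and 0.303 in edgeR's test. SlCYP735A1, whose product makes trans-zeatin type cytokinins, averaged 73.5 ± 27.3 CPM at 0 h and 92.7 ± 18.6 CPM at 96 h (SD, n = 4, adjusted p = 0.36, edgeR).

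Of the 5 other genes of the hormone table, 2 rose (background 6.9%), 0 fell and 3 did not pass in edgeR. Without adjustment and in DESeq2 the falls were 0 as well. TMF (Solyc09g090180), which in tomato shoots delays the change of the meristem to flowering, measured 11.5, 15.3, 8.97 and 12.5 CPM at 0 h and 42.3, 13.6, 22.5 and 22 CPM at 96 h. It rose in the test (Log2FC 1.06 ± 0.30, adjusted p = 0.0441, edgeR), but replicate 2 of 96 h lay within the range of 0 h, replicate 1 was far above the others, and the gene passed in 1 of the 8 fits with 1 library left out. SlHDG7 (Solyc02g089420), a homeodomain factor, rose 4.44-fold and passed in all 8 of these fits (Log2FC 2.15 ± 0.43, adjusted p = 0.0164, edgeR), at a level of 0.126 to 0.708 CPM at 0 h and 1.37 to 2.79 CPM at 96 h. EXPA5, an expansin that loosens cell walls, measured 485, 489, 371 and 433 CPM at 0 h and 686, 430, 560 and 564 CPM at 96 h. Again replicate 2 was the lowest library of 96 h and the only one within the range of 0 h (Log2FC 0.34 ± 0.14, adjusted p = 0.128, edgeR). SlDIR1, named after a lipid transfer protein of systemic immunity in Arabidopsis, averaged 486 ± 74.7 and 500 ± 90.9 CPM, and SlLBD38, of the lateral organ boundaries domain family, 13.1 ± 1.69 and 14.6 ± 4.4 CPM (SD, n = 4, adjusted p = 0.85 and 0.601, edgeR). Over the 21 genes of the hormone table the count of 6 that rose was 3 without replicate 1, 2 or 4 of 0 h and without replicate 1, 3 or 4 of 96 h. Without both libraries that stood apart it was 7, and 3 others fell.

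The same 4 days were set against those of the No FR fruits, which share no library with the Leaf FR comparison. In No FR fruits 1594 of 18454 genes differed between 96 h and 0 h (8.64%, edgeR), 947 of them higher (5.13%) and 647 lower (3.51%), and 768 of them had a Log2FC beyond 1 (4.16%). Leaving out replicate 3 or 4 of 0 h gave 916 and 582 genes there, and leaving out replicate 3 or 4 of 96 h gave 1003 and 683. Of the 18170 genes tested in both, 620 passed in both, which is 22.9% of the 2707 from Leaf FR fruits and 40.8% of the 1521 from No FR fruits. In 619 of the 620 the direction was the same, with 274 higher and 345 lower at 96 h. Of the 2707 genes that changed in Leaf FR fruits, 93.6% had the same sign in No FR fruits, against 71.2% of all genes, and their median absolute Log2FC was 0.61 in Leaf FR and 0.42 in No FR fruits. Read from the other side, the 1521 genes that changed in No FR fruits had a median absolute Log2FC of 0.93 there and of 0.55 in Leaf FR fruits. Each set was thus larger in the fruits that had chosen it. Across all genes the Log2FC values of both treatments had a Pearson r of 0.77, where genes are not independent of each other.

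The difference between both 4-day changes was tested as an interaction over 16 libraries. It passed for 0 of 18768 genes in edgeR's test (0%), with 1661 genes at an unadjusted p under 0.05 and a lowest adjusted p of 0.346, while DESeq2 gave 46 genes (11 with a more positive and 35 with a more negative change in Leaf FR fruits). Without replicate 2 of 96 h of Leaf FR, edgeR gave 58 genes (5 and 53), and without replicate 2 of 96 h of No FR it gave 1. A gene that passed in Leaf FR and not in No FR fruits is therefore not shown to differ between them by the main test.

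For the carbohydrate and respiration table the values of both treatments lay apart. In No FR fruits 0 of the 27 genes passed in edgeR (background 8.64%) or in DESeq2. At an unadjusted p under 0.05 in edgeR, 1 fell. A negative Log2FC was found for 21 of the 27, and the median was -0.10. In Leaf FR fruits 10 passed (background 14.9%), with 27 positive values and a median of 0.25. The interaction was positive for all 27 and passed for 0 (18 at an unadjusted p under 0.05, 0 in DESeq2). LIN9 measured 6.99, 11.1, 3.65 and 7.25 CPM at 0 h and 4.54, 6.24, 2.2 and 5.24 CPM at 96 h in No FR fruits, a Log2FC of -0.66 ± 0.36 against 1.01 ± 0.20 in Leaf FR fruits. Its interaction had an unadjusted p of 0.00151 and an adjusted p of 0.372 (edgeR). AGPase L1 measured 259, 296, 146 and 215 CPM at 0 h and 203, 279, 207 and 276 CPM at 96 h in No FR fruits, a Log2FC of 0.08 ± 0.20 against 0.80 ± 0.16. Since the study picked these genes for being higher in Leaf FR than in No FR fruits, a positive interaction follows in part from that choice.

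Of the 21 hormone genes, 6 rose (background 5.13%) and 1 fell (background 3.51%) in No FR fruits. SlIAA19 rose there as well, from 6.4 ± 1.14 to 11.4 ± 2.98 CPM (SD, n = 4, Log2FC 0.83 ± 0.20 SE, adjusted p = 0.0334, edgeR), a smaller value than the 2.08 of Leaf FR fruits, and the interaction did not pass (unadjusted p = 0.0012, adjusted p = 0.357). GA20OX1 had a Log2FC of 0.52 ± 0.21 in No FR fruits (adjusted p = 0.162, edgeR) against 1.02 ± 0.11. The genes of hormone breakdown rose in No FR fruits, CKX4 by a Log2FC of 1.31 ± 0.18 (adjusted p = 0.00282), CKX by 1.28 ± 0.23 (adjusted p = 0.0102) and GA2OX5 by 1.26 ± 0.15 (adjusted p = 0.00162, edgeR), and none of the 3 passed in Leaf FR fruits, with values of -0.12, -0.56 and 0.15. GA2OX5 for example went from 6.81, 7.09, 9.59 and 5.64 CPM to 19.4, 17.3, 16.6 and 16.3 CPM in No FR fruits, all 4 above the highest Leaf FR fruit of 96 h at 12.2 CPM. SlPIN5 rose by a Log2FC of 0.90 ± 0.22 (adjusted p = 0.0315) and SlARF10A by 0.64 ± 0.13 (adjusted p = 0.0151), and EXPA5 fell by 0.45 ± 0.11 (adjusted p = 0.034, edgeR). The interactions of CKX4, CKX, GA2OX5, SlPIN5, SlARF10A and EXPA5 had unadjusted p-values of 0.00113, 0.00117, 0.00314, 0.000737, 0.0256 and 0.000508 and did not pass after adjustment (0.357 to 0.508, edgeR). The study listed these 6 genes and SlIAA19 for a difference between Leaf FR and No FR fruits at 96 h. Their interactions, and the separate levels of GA2OX5 at 96 h, therefore follow in part from that choice. Over the 21 hormone genes DESeq2 gave 1 interaction with a more positive and 3 with a more negative change in Leaf FR fruits. In the 5 of these genes that rose in No FR fruits replicate 2 of 96 h was the highest Leaf FR library, and in EXPA5 it was the lowest, so that on these 6 genes it was the Leaf FR fruit nearest to No FR.

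**Figure D3:**
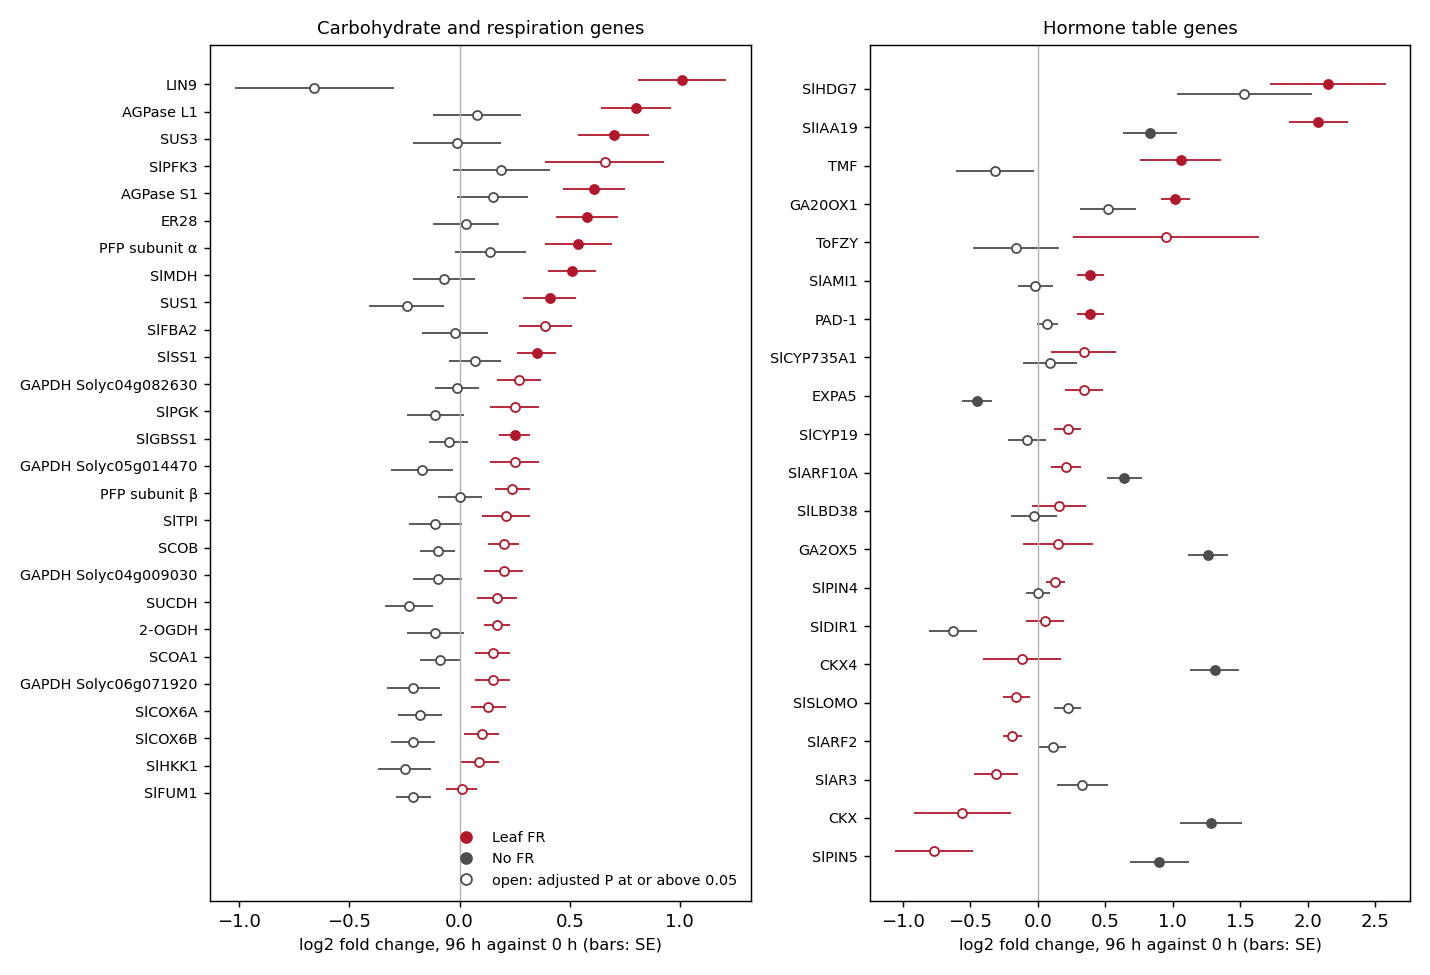
Log2FC of 96 h against 0 h (x axis, bars give the SE, n = 4 against 4) for the 27 genes of the carbohydrate table (left) and the 21 of the hormone table (right), in Leaf FR (red) and No FR fruits (grey), with filled points where the adjusted p was under 0.05 in edgeR's test. All 27 carbohydrate genes lie right of 0 in Leaf FR fruits and 21 lie left of it in No FR fruits, and CKX4, CKX, GA2OX5 and SlPIN5 lie between 0.90 and 1.31 in No FR and between -0.77 and 0.15 in Leaf FR fruits.

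The fruits of 48 h, taken at the same time of day, split the 4 days into an earlier and a later step. These comparisons share libraries with that of 96 h against 0 h, so that only their own values are given. From 0 to 48 h, 758 of 18348 genes differed (4.13%, edgeR), 454 higher (2.47%) and 304 lower (1.66%), and 416 of them had a Log2FC beyond 1 (2.27%). This count was carried by few libraries: it was 0 without replicate 2 of 0 h, 1 without replicate 4, 47 without replicate 1 and 2329 without replicate 3 of 0 h, and it was 29 without replicate 3 of 48 h and 344, 326 and 425 without replicate 1, 2 or 4. From 48 to 96 h, 0 of 18360 genes passed (0%) in edgeR's test, with a lowest adjusted p of 0.0526 and 3008 genes at an unadjusted p under 0.05, while DESeq2 gave 399, and edgeR gave 201 without replicate 2 of 96 h.

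At 48 h 4 of the 21 genes of the hormone table had risen (background 2.47%) and 0 had fallen in edgeR. The falls were also 0 without adjustment and 0 in DESeq2. The study listed GA20OX1, SlHDG7 and SlLBD38 for a higher level in Leaf FR than in No FR fruits at 48 h. That choice used the Leaf FR libraries of 48 h tested here, so that the count follows in part from it. SlIAA19 measured 16.4, 11.2, 14.9 and 16.4 CPM at 48 h, above all fruits of 0 h (Log2FC 1.46 ± 0.17, adjusted p = 0.018, edgeR). GA20OX1 measured 87.6, 77.8, 120 and 107 CPM at 48 h (Log2FC 0.92 ± 0.13, adjusted p = 0.0184), and at 24 h its 4 libraries, at 59.8 to 89 CPM, were above the 56.9 CPM of the highest fruit of 0 h. From 48 to 96 h its level moved by a Log2FC of 0.11 ± 0.14. SlHDG7 was at 1.32 to 2.70 CPM at 48 h (adjusted p = 0.0209), and SlLBD38 at 18.9 ± 2.90 CPM (SD, n = 4, adjusted p = 0.0446), with a Log2FC of -0.37 ± 0.20 from 48 to 96 h that did not pass (adjusted p = 0.369, edgeR). GA2OX5 averaged 13.9 ± 3.34 CPM at 48 h, against 7.79 ± 2.03 at 0 h and 8.59 ± 2.88 at 96 h, and neither step passed (adjusted p = 0.0559 and 0.221, edgeR).

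Of the 27 carbohydrate and respiration genes, 0 had passed at 48 h in edgeR (background 4.13%), with a median Log2FC of 0.04. Higher levels were found for 2 without adjustment and for 1 in DESeq2. From 48 to 96 h all 27 had a positive Log2FC, with a median of 0.23 against 0 over all genes, and 0 passed in edgeR, where the lowest adjusted p of any gene was 0.0526, against 13 in DESeq2 and 21 at an unadjusted p under 0.05. The study listed all 27 for a higher level in Leaf FR than in No FR fruits at 96 h. The step from 48 to 96 h uses those Leaf FR libraries, and the step from 0 to 48 h does not. The positive values of the later step therefore follow in part from that choice. SUS1 measured 2820, 3030, 2710 and 3680 CPM at 48 h, the range of 0 h, before the 3750 to 4570 CPM of 96 h. SlGBSS1 measured 362, 360, 361 and 372 CPM at 48 h and 415 to 457 CPM at 96 h, with a Log2FC of -0.01 ± 0.07 in the first step and 0.27 ± 0.06 in the second. AGPase L1 moved in both steps by similar amounts, 0.47 ± 0.15 and 0.34 ± 0.10, with 265 to 333 CPM at 48 h. LIN9 had values of 0.62 ± 0.21 and 0.40 ± 0.14 in the same steps. Whether the step from 48 to 96 h differed from that from 0 to 48 h, or the timing of one table from that of the other, was not tested.

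Lastly, the Leaf FR fruits were placed on the course of the No FR fruits with a growth score. The score is the mean log2 CPM of 878 rising genes minus that of 643 falling genes. Both sets had passed, with that direction, in No FR fruits between 0 and 96 h. Only genes tested in both treatments were used, so that the filter on low counts also rested on Leaf FR libraries that are scored. The effect of this on the score was not tested. In Leaf FR fruits the score was -2.25, -2.43, -1.34 and -2.65 at 0 h and -1.15, 0.06, -0.84 and -0.66 at 96 h. All fruits of 96 h lay above all fruits of 0 h, and replicate 3 of 0 h and replicate 2 of 96 h had the highest values of their groups. The mean was -1.86 ± 0.64 at 24 h, -0.59 ± 0.29 at 48 h and -0.65 ± 0.51 at 96 h (SD, n = 4). In No FR fruits it was -2.17 ± 0.52 at 0 h and 0.11 ± 0.23 at 96 h, where the genes were chosen on those libraries and the distance is widened by that choice. The No FR fruits of 24 and 48 h, which the choice did not use, had means of -1.69 ± 0.65 and -0.8 ± 0.68. Taken by direction, the 878 genes that rose in No FR fruits had a median difference from 0 h of 0.74 at 48 h and 0.51 at 96 h in Leaf FR fruits, and the 643 that fell had -0.42 and -0.53.

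The converse score used the 1253 genes that rose and the 1454 that fell in Leaf FR fruits, again of those tested in both treatments. It went from -0.25 ± 0.55 at 0 h through 0.56 ± 0.44 at 48 h to 0.98 ± 0.38 at 96 h in No FR fruits (SD, n = 4). In the Leaf FR fruits on which its genes were chosen it went from -0.46 ± 0.51 through 0.65 ± 0.28 to 1.22 ± 0.21. On this score the 4 libraries of 96 h of both treatments overlapped. On the first score replicate 2 of 96 h of Leaf FR, at 0.06, lay within the No FR range of -0.17 to 0.34. The other Leaf FR libraries of 96 h lay below that range.

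**Figure D4:**
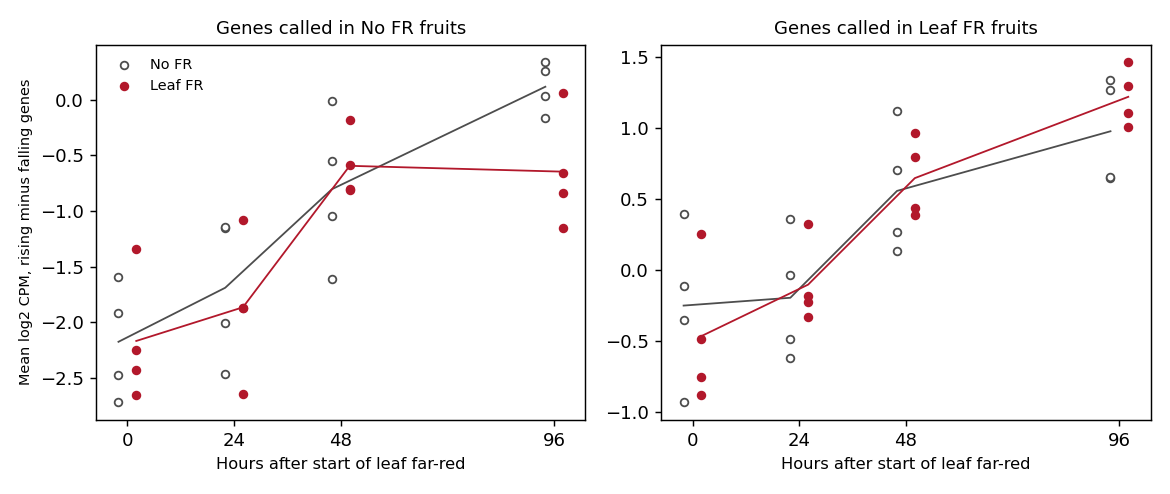
Growth score (y axis, mean log2 CPM of rising minus falling genes) of each fruit library at 0, 24, 48 and 96 h (x axis), for genes chosen in No FR fruits (left) and in Leaf FR fruits (right), with filled points for Leaf FR, open points for No FR and lines through the means (n = 4). On the left the Leaf FR fruits average -0.59 at 48 h and -0.65 at 96 h, and on the right 0.65 and 1.22.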

How the data were processed

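Per the labels and the methods of the study, the authors filtered reads with SOAPnuke 1.5.6, aligned them with Bowtie2 2.5.0 and estimated reads per gene with RSEM 1.3.1, which divides reads that match several genes. The deposited expected counts are whole numbers and were used as given. The normalized table was not used. edgeR 4.0.16 (limma 3.58.1, R 4.3.3) was run with TMM normalization on the libraries compared, over genes for which 3 or more of them held 10 or more counts, and p-values were adjusted over all genes tested (threshold 0.05). The SE is the Log2FC divided by the square root of F. CPM use TMM library sizes over all fruit libraries, and log2 CPM a prior count of 2. Alternatives included DESeq2 1.42.0 and each library left out in turn. The scripts were tested on simulated data.

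The rule named the 12 largest rises and 12 largest falls among genes that passed, whose libraries did not overlap, with a mean of at least 20 CPM in the higher group and a name. 1370 genes met it apart from the name and 13 had one, so all genes of the study's tables are described, and 40 planned lists by description were not used here. Members and lists were chosen with earlier results of these data known. Replicates differed beyond counting error (over 30 pairs the chi-square was 5.59 or more times its degrees of freedom).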

Additional observations from a re-analysis of the deposited data

Results flagged for a closer look

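Among 100 groups of 4 libraries checked (each named gene and each growth score in Leaf FR fruits at 0 and at 96 h), 3 held a library far from the other 3 by Dixon's criterion, and chance flags about 1 in 20. SlGBSS1 in replicate 3 of 0 h was at 405 CPM, with the others at 356 to 361 CPM. CKX in replicate 2 of 96 h was at 11 CPM, with the others at 3.96 to 5.08 CPM. SlHDG7 in replicate 4 of 96 h was at 2.79 CPM, with the others at 1.37 to 1.52 CPM.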

How the results depend on the processing

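With 1 library left out, the count of genes that differed in Leaf FR fruits (2726) ran from 654 to 4811, those with a Log2FC beyond 1 (745) from 285 to 1235, the carbohydrate genes (10) from 0 to 17, the hormone genes (6) from 3 to 6, the No FR count (1594) from 582 to 1857, the interaction (0) from 0 to 58, 48 h against 0 h (758) from 0 to 2329 and 96 h against 48 h (0) from 0 to 201. Leaving out both libraries that stood apart, chosen after seeing the data, gave 4710, 1224, 16 and 10 for the first 4 counts. DESeq2 gave 2442 in No FR fruits, 46 for the interaction, 1389 for 48 h against 0 h and 399 for 96 h against 48 h, where no filter on low counts and robust dispersion estimates each gave 4. A single fit over all 48 fruit libraries gave 3711 in No FR fruits. The cause was not tested. DESeq2 gave 3428 genes in Leaf FR fruits.

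Deviations of Leaf FR libraries with the same replicate number at 0 and 96 h correlated by 0.06, -0.30, -0.20 and -0.09, and 0 of 4 correlated best with their own number, so the numbers were not taken as pairs. With the replicate number as a block the counts were 104, 71, 0 and 2 for the 4 Leaf FR counts, 626 in No FR fruits and 382 for 96 h against 48 h.

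Among genes with small changes the Log2FC crossed 0 with 1 library left out: CKX4 from -0.46 to 0.06 (-0.50 without both), SlFUM1 from -0.03 to 0.08, GA2OX5 from -0.07 to 0.28 (-0.04 without both), SlDIR1 from -0.05 to 0.14, ToFZY from -0.30 to 1.27 and SlLBD38 from -0.01 to 0.32. Low levels limit SlHDG7 most, with 2 to 12 counts per Leaf FR library at 0 h and 23 to 43 at 96 h. ToFZY, CKX4 and LIN9 were low as well, at 23 to 263, 44 to 114 and 56 to 207 counts over both days. SlIAA19 started from a like level, with 69 to 118 counts at 0 h.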
